A study of Mus musculus with 10 samples.

Results

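The 10 genes described here are Fos, Fosb, Fosl2, Jun, Junb, Jund, Atf3, Egr1, Ier2 and Myc, which encode subunits of the transcription factor AP-1, its relative ATF3, and further immediate early regulators. They were chosen by symbol, and all 10 were found among the 16667 genes of the table of normalized counts and the 29242 genes of the table of TPM (transcript abundance corrected for length and library size). The samples were visceral adipose tissue from wild type C57BL/6 mice aged 10 weeks, read from the sample titles as the gonadal depot. In the sham group, 5 mice had a sham operation, and in the KPC group 5 mice carried an orthotopic KPC tumour, that is, a tumour of a mouse model of pancreatic ductal adenocarcinoma placed in the pancreas. Both groups share the wild type genotype, each library is treated as 1 mouse, and the labels give neither sex nor the time between surgery and collection.

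Immediate early genes are switched on within minutes of a stimulus, without new protein synthesis, when growth factor, cytokine or stress signals reach MAP kinases and factors such as SRF and CREB that already sit at their promoters. FOS proteins pair with JUN proteins through a leucine zipper to form AP-1, and ATF3 is a stress-induced member of the same zipper superfamily. In fat, these factors are known in early adipocyte differentiation, in tissue inflammation and in the responses of macrophages and stromal cells. Their mRNAs are short-lived, so a level in frozen tissue is a snapshot of the last hours.

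The promoter windows of Atf3, Fos and Jun are shown because each holds a motif that factors of this family bind. They come from RefSeq on GRCm38.p6, the patch release of mm10, run 5′ to 3′ on the strand of the gene and end at the base before the RefSeq start. Capitals mark the core of the cAMP response element (CRE) ACGTCA in Atf3, the same core on the other strand and the TATAAA element in Fos, and the AP-1-like site TGACATCA in Jun. The Atf3 window is chr1:191183334-191183483 on the minus strand, the Fos window chr12:85473740-85473889 on the plus strand and the Jun window chr4:95052223-95052372 on the minus strand.
Atf3: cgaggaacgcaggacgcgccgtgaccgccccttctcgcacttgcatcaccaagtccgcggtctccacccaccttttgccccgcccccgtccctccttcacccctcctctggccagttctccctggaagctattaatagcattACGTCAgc
Fos: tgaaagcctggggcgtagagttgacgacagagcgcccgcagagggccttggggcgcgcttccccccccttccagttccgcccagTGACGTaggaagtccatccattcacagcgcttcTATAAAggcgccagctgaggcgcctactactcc
Jun: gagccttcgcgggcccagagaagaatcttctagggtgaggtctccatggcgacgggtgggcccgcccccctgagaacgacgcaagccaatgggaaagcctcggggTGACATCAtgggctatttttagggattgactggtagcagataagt

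The table of promoters held 7 of the 10 genes, and 250 bases before each start were searched on both strands. The CRE core stood 8 bases before the Atf3 start and 66 bases before the Fos start, and it was present in 6.47% of 32851 promoter windows of the same length. The Jun site stood 45 bases before the start, and TGACATCA was present in 2.93% of the windows. TATAAA was present in 12.4%. The windows before the RefSeq starts of Fosb, Fosl2, Junb and Jund held none of these letters. Nor did they hold the longer CRE TGACGTCA (1.55% of all windows), the AP-1 site TGANTCA (6.75%) or the CArG box that SRF binds (1.47%). TGACGTCA contains the core ACGTCA, and a match is a description of sequence only.

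On GRCm38 (mm10) with the GENCODE vM21 annotation, all 10 genes are protein-coding. The FOS family genes lie on chromosome 12 at 85473890 to 85477273 (Fos, plus strand), chromosome 7 at 19302696 to 19310051 (Fosb, minus) and chromosome 5 at 32135801 to 32157842 (Fosl2, plus). The JUN family genes lie on chromosome 4 at 95049034 to 95052222 (Jun, minus) and on chromosome 8 at 84974484 to 84978718 (Junb, minus) and 70698949 to 70700616 (Jund, plus). Atf3 lies on chromosome 1 at 191170296 to 191218039 (minus), Egr1 on chromosome 18 at 34859823 to 34864984 (plus), Ier2 on chromosome 8 at 84661331 to 84662852 (minus) and Myc on chromosome 15 at 61985391 to 61990374 (plus). RefSeq starts can differ from these positions. The promoter windows of Atf3 and Fosl2 lie inside the gene spans given here, and that of Jund ends at 70697738, well before its span. Jun, Jund and Ier2 are annotated with 1 transcript of 1 exon each. A longer Junb transcript overlaps Prdx2 on the opposite strand, and Jun and Jund overlap the antisense genes Junos and Gm11175. The strand setting of the counting is not given in the sources used here, so reads from such overlaps cannot be told apart.

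Each library summed to between 20941242 and 24449863 normalized counts, which are gene counts put on a common scale by the authors. Adipoq, the adiponectin gene that defines fat cells, stood at 3322 to 5245 TPM in all 10 libraries, so the tissue label fits its markers. Of 8 epididymis markers, 5 were listed at 0 everywhere and the list summed to at most 1.75 TPM. KPC mouse 1 stood apart from the other libraries: mitochondrially encoded genes took 15.7% of its TPM against 26.3% to 33.3% elsewhere, and its median correlation with the others was 0.908 against 0.939 to 0.959. Values without it are given for some of the 10 genes and some gene lists, and others can change without it too. A value not marked as without KPC mouse 1 includes this mouse.

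None of the 10 genes passed the test between groups. The test was limma on log2(normalized count + 1) over 14203 genes with a mean of at least 10 normalized counts, with a Benjamini-Hochberg adjusted p under 0.05 as threshold. It called 0.0563% of all genes tested (8 genes), 0.0493% higher and 0.00704% lower in KPC mice. All 10 genes were tested, 9 with a positive and 1 with a negative difference of KPC minus sham, where 46.9% of all genes had a positive one. Their median log2 difference was 0.58 and that of all tested genes -0.02. At an unadjusted p under 0.05, 4 of the 10 lay higher in KPC mice (Atf3, Fosl2, Myc and Junb) and 0 lower, where 7.61% of all genes lay higher and 5.91% lower at that threshold. Without KPC mouse 1 the median difference of the 10 genes was 0.42, with 8 positive and 2 negative. Junb no longer had an unadjusted p under 0.05, leaving 3 of the 10, without KPC mouse 1 or 2, without sham mouse 2, 3 or 4, or without a variance trend. Without KPC mouse 3 Jund joined, making 5. For Atf3 and Myc the lowest KPC mouse exceeded the highest sham mouse, which held for 2.75% of all genes tested. The remaining 6 genes overlapped broadly between groups.

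**Figure D1:**
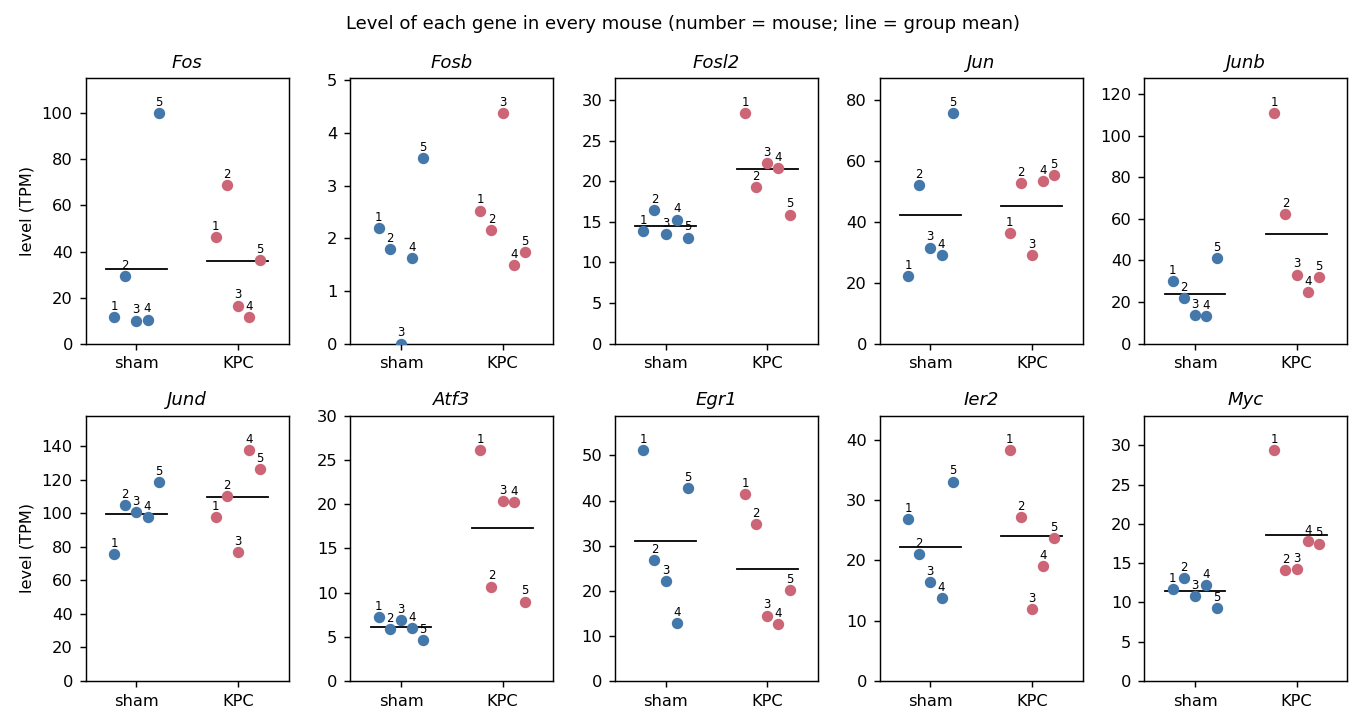
Level in TPM (vertical axes, each starting at 0) of the 10 genes in 5 sham and 5 KPC mice. Points are mice with their number, lines are group means (none for Fosb, which is listed at 0 in sham mouse 3), and only Atf3 and Myc show no overlap between groups.

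Atf3 encodes a stress-induced factor that binds CRE and AP-1 sites, often as a repressor. Its levels were 7.21, 5.86, 6.88, 6.00 and 4.61 TPM in sham mice 1 to 5 and 26.1, 10.7, 20.4, 20.3 and 8.99 TPM in KPC mice 1 to 5. The lowest KPC mouse thus stood above the highest sham mouse, and KPC mice 1, 3 and 4 stood above the other KPC mice. Sham mice averaged 6.11 ± 1.01 TPM, whereas the KPC mean was 17.3 ± 7.22 TPM (SD, n = 5 each). The difference was 1.43 ± 0.29 on the log2 scale (± SE here and for each log2 difference), or 2.70-fold with a 95% interval of 1.73 to 4.21. The limma adjusted p was 0.0956 over all genes tested, and 0.486% of genes lay higher at an adjusted p under 0.1. An exact two-sided permutation test over all assignments of 5 of 10 mice gave an unadjusted p = 0.00794, the smallest that this design allows. Without KPC mouse 1 the difference was 1.24 with a limma adjusted p of 0.0853. Limma's array weights give each library a weight by its scatter, and with them 1.41% of all genes tested were called. The limma adjusted p of Atf3 was then 0.0269 at a difference of 1.28.

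MYC drives growth and ribosome production, and its gene responds early to mitogens. Myc ran at 11.7, 13.1, 10.8, 12.2 and 9.22 TPM in sham mice 1 to 5 and at 29.3, 14.1, 14.2, 17.8 and 17.5 TPM in KPC mice 1 to 5. The groups did not overlap, KPC mouse 1 stood far above the rest, and the gap between the highest sham and lowest KPC mouse was small. The difference was 0.69 ± 0.20 on the log2 scale, or 1.62-fold with a 95% interval of 1.18 to 2.21. The limma adjusted p was 0.221 and the exact permutation p, unadjusted, 0.00794. Without KPC mouse 1 the KPC mean was 15.9 TPM in place of 18.6 ± 6.26 TPM (SD, n = 5), and the log2 difference was 0.50.

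FOSL2 (FRA2) is a FOS family subunit that lasts longer than FOS and is known as a regulator of leptin expression in fat cells. Sham mice 1 to 5 had 13.8, 16.5, 13.5, 15.3 and 13.1 TPM of Fosl2 and KPC mice 1 to 5 had 28.4, 19.3, 22.3, 21.6 and 15.9 TPM. Of the KPC mice, 4 stood above all sham mice, and KPC mouse 5 fell within the sham range. The log2 difference was 0.59 ± 0.16, a 1.50-fold higher level with a 95% interval of 1.18 to 1.91, at a limma adjusted p of 0.186. The exact permutation p was 0.0159, unadjusted. Without KPC mouse 1 the log2 difference was 0.47 and the KPC mean 19.8 TPM in place of 21.5 TPM. Among KPC mice the order was nearly that of Atf3, with mouse 1 highest, mouse 3 next and mouse 5 lowest for both genes.

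JUNB is a JUN family subunit that can restrain JUN. In sham mice 1 to 5 Junb stood at 30.1, 21.7, 13.8, 13.4 and 41.2 TPM and in KPC mice 1 to 5 at 111, 62.4, 33.2, 24.9 and 32.1 TPM. KPC mice 1 and 2 stood above every sham mouse, while the other 3 lay inside the sham range. The log2 difference was 1.07 ± 0.46, or 2.10-fold with a 95% interval of 1.05 to 4.22, at a limma adjusted p of 0.342. The exact permutation p was 0.0952. Without KPC mouse 1 the difference was 0.73, the KPC mean was 38.2 TPM in place of 52.7 TPM, and the unadjusted limma p was 0.0909.

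**Figure D2:**
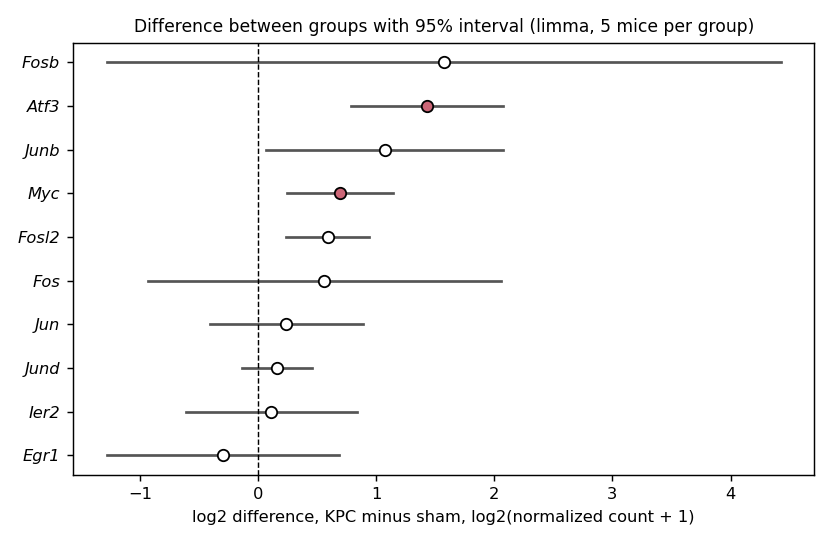
Log2 difference of KPC minus sham on log2(normalized count + 1) (horizontal axis) with its 95% interval from limma, 5 mice per group. Filled points are genes whose groups do not overlap, and the intervals of Atf3, Junb, Myc and Fosl2 lie above 0 before adjustment over all genes.

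The classical early genes Fos, Egr1, Ier2 and Jun differed between mice more than between groups. FOS is the short-lived AP-1 subunit that marks recent stimulation. Sham mice 1 to 5 had 11.6, 29.2, 9.94, 10.4 and 100.2 TPM of Fos and KPC mice 1 to 5 had 46.4, 68.9, 16.5, 11.5 and 36.1 TPM. The highest mouse of all was sham mouse 5 and the lowest sham mouse 3, so the groups overlapped over nearly the whole range. Within the sham group the highest normalized count was 10.3 times the lowest, and within the KPC group 6.72 times. The log2 difference was 0.56 ± 0.68 with a 95% interval of -0.93 to 2.06, a limma adjusted p of 0.746 and an exact permutation p of 0.484. It depended on single mice: it was 1.12 (limma adjusted p 0.391) without sham mouse 5, 0.93 without KPC mouse 4, 0.38 without KPC mouse 1 and 0.24 when KPC mouse 2 was left out. Leaving out sham mouse 3 or 4 gave 0.28 or 0.31. Sham mouse 5, the highest for Fos, also had the highest sum of 10 skeletal muscle markers, 4429 TPM, where KPC libraries had 50.0 to 237 TPM. Its sum of 8 smooth muscle and pericyte markers, 2876 TPM, was the highest too. The part of these in the Fos level was not tested.

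EGR1 is a zinc finger factor induced through SRF. Its gene stood at 51.1, 26.8, 22.1, 12.9 and 42.7 TPM in sham mice 1 to 5 and at 41.5, 34.9, 14.5, 12.6 and 20.2 TPM in KPC mice 1 to 5. Both groups held high mice (sham 1 and 5, KPC 1 and 2) and low mice (sham 4, KPC 3 and 4). KPC minus sham came to -0.30 ± 0.45 with a 95% interval of -1.28 to 0.69 on the log2 scale and a limma adjusted p of 0.806. Its size rested on single mice, at -0.03 without sham mouse 1, -0.06 without KPC mouse 4, -0.54 without KPC mouse 1 and -0.59 without sham mouse 4.

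IER2 is a small early response regulator. Levels of Ier2 were 26.8, 21.0, 16.4, 13.7 and 33.1 TPM in sham and 38.2, 27.2, 11.8, 19.0 and 23.7 TPM in KPC mice 1 to 5. KPC mouse 1 had the highest and KPC mouse 3 the lowest level, with all sham mice between them. KPC minus sham came to 0.11 ± 0.33 with a 95% interval of -0.61 to 0.84 and a limma adjusted p of 0.903, and without KPC mouse 1 it was -0.10.

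JUN is the main partner of FOS and a target of JNK kinases. Jun ran at 22.2, 52.2, 31.5, 29.0 and 75.8 TPM in sham mice 1 to 5 and at 36.3, 52.8, 29.1, 53.4 and 55.3 TPM in KPC mice 1 to 5. As for Fos, sham mouse 5 was the highest of all, and no KPC mouse left the sham range. The log2 difference was 0.24 ± 0.29 with a 95% interval of -0.41 to 0.89 and a limma adjusted p of 0.749.

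Jund, whose product is the constitutive JUN subunit of resting cells, had the highest mean level of the 10 genes in both groups. It stood at 75.5, 104.6, 100.5, 97.4 and 118 TPM in sham mice 1 to 5 and at 97.6, 110.0, 76.8, 137 and 126 TPM in KPC mice 1 to 5. KPC mice 4 and 5 were highest, and the groups overlapped. On the log2 scale KPC exceeded sham by 0.16 ± 0.13 with a 95% interval of -0.13 to 0.46 and a limma adjusted p of 0.617.

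FOSB is a FOS family subunit best known from stimulated neurons, and its gene had the lowest level of the 10. It was listed at 2.20, 1.80, 0, 1.62 and 3.53 TPM in sham mice 1 to 5 and at 2.53, 2.16, 4.38, 1.50 and 1.74 TPM in KPC mice 1 to 5. Sham mouse 3 was listed at exactly 0 in both tables, where every other mouse had at least 113 normalized counts. In that library 3 genes were listed at 0 that exceeded 100 normalized counts in all other libraries, and across libraries this number ran from 0 to 3. The log2 difference of 1.58 ± 1.30 (limma adjusted p 0.614) rested on that value: without sham mouse 3 it was 0.08 ± 0.35.

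In the order of mean sham levels per length, Jund (99.3 ± 15.5 TPM, SD, n = 5) came first, followed by Jun (42.2 ± 21.9), Fos (32.3 ± 38.8) and Egr1 (31.1 ± 15.6). Junb (24.0 ± 11.8), Ier2 (22.2 ± 7.84), Fosl2 (14.4 ± 1.41), Myc (11.4 ± 1.46) and Atf3 (6.11 ± 1.01) followed, with Fosb lowest. From Jun to Ier2, the sham ranges of neighbours in this order overlapped, and levels of different genes were not tested against each other. In KPC mice Jund was again first and Fosb last. Junb averaged 52.7 ± 35.6 TPM there, above Jun at 45.4 ± 11.9 TPM, but without KPC mouse 1 Junb averaged 38.2 TPM and Jun 47.6 TPM. Atf3 (17.3 ± 7.22 TPM) approached Myc (18.6 ± 6.26 TPM).

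**Figure D3:**
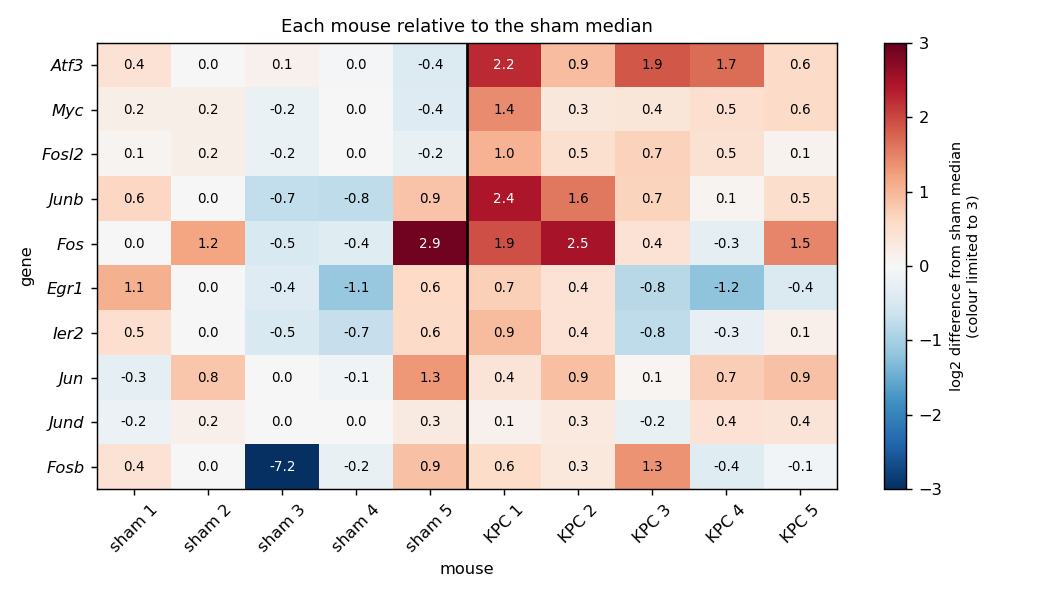
Each mouse (columns) relative to the sham median of each gene (rows), on log2(normalized count + 1). As 0 is the sham median, sham mice lie on both sides of it for every gene. Atf3, Myc, Fosl2, Junb and Jun are above 0 in all KPC mice. Fos, Egr1 and Ier2 lie on both sides of 0 in the KPC group too.

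The spread between mice set the genes apart from each other. For Fos the SD between mice of a group was 1.27 on the log2 scale, larger than for 95.9% of the genes tested, where the median gene had 0.28. Junb (0.85), Egr1 (0.84), Ier2 (0.61), Jun (0.54) and Atf3 (0.53) also exceeded at least 79.5% of genes. Fosl2 (0.28) and Jund (0.22) lay at or below the middle, with smaller SDs in 49.1% and 36.7% of genes. Myc had 0.36, above 63.4%.

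**Figure D4:**
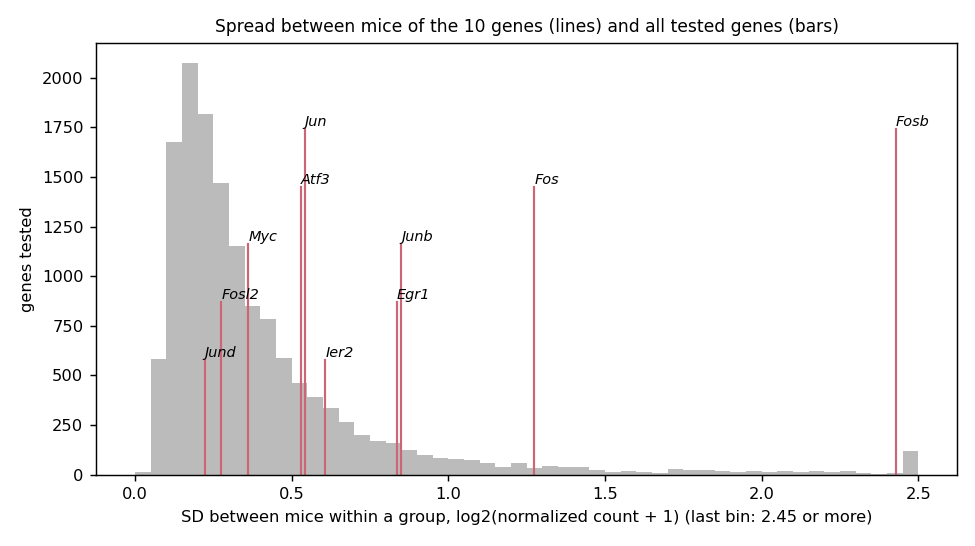
SD between mice within a group on log2(normalized count + 1) (horizontal axis) of the 14203 tested genes (grey bars, number of genes) and of the 10 genes (red lines, whose height has no meaning). Fos lies far to the right at 1.27, and the value of Fosb comes from 1 library listed at 0.

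Some genes were high in the same mice. Over all 45 pairs of the 10 genes, 5 pairs had an adjusted permutation p under 0.05 for Pearson's r across 10 mice, 3 of them among Atf3, Fosl2 and Myc, where 1 pair passed by Spearman's rho. For these 3 no coefficient is given, since the groups lie apart. Egr1 and Ier2 had r = 0.867 (permutation p = 0.00219, adjusted 0.0246) and Spearman's rho = 0.830 (permutation p = 0.00456, adjusted 0.0513). Without the 2 mice farthest from the median of Egr1, r was 0.933. Jun and Jund had r = 0.830 (permutation p = 0.00453, adjusted 0.0408) and rho = 0.758 (permutation p = 0.0154, adjusted 0.0863), and r was 0.842 without the 2 mice farthest from the median of Jun. The values of a pair share their library and its scaling.

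Within the first number of the sample titles (1, 2 or 4), whose meaning the labels do not give, each group had 1 or 2 mice. The differences of Atf3 in log2 were 1.35, 1.81 and 1.55 in title numbers 1, 2 and 4, those of Fosl2 0.63, 0.79 and 0.51, and those of Myc 0.71, 0.47 and 0.94. For Atf3 and Myc, whose groups do not overlap, any such split gives a positive difference. Fosl2, whose groups overlap, also lay higher in KPC mice in every title number. Junb gave 1.70, 1.44 and -0.54 and Fos 1.61, 0.85 and -2.29, with the opposite sign in title number 4, which holds sham mouse 5.

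The other AP-1 and ATF family genes, which supply partners and competitors of FOS and JUN, gave 0 calls among 17 tested of 18. At an unadjusted p under 0.05, 6 lay higher and 1 lower in KPC mice, and the median log2 difference was 0.15. Of all genes tested, 7.61% lay higher and 5.91% lower at that threshold. Maff, a small MAF factor without an activation domain, averaged 3.69 ± 0.57 TPM in sham mice, against a KPC mean of 8.51 ± 2.42 TPM (SD, n = 5). Its limma adjusted p was 0.0634, and its groups did not overlap, as for 2.75% of all genes in that direction. Batf3, a factor of dendritic cells, had 3.05 ± 0.33 TPM in sham mice and 7.94 ± 4.22 TPM in KPC mice (limma adjusted p 0.127), or 6.11 TPM without KPC mouse 1. Batf2 stood at 1.28 ± 0.42 against 2.53 ± 0.78 TPM. In the other direction Atf5 stood at 116 ± 15.5 against 95.2 ± 14.2 TPM (limma adjusted p 0.346). Without KPC mouse 1, 0.493% of all genes tested were called. In that fit 2 genes of the list passed as higher, among them Maff at a limma adjusted p of 0.0411.

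Among other immediate early genes, 30 of 35 tested had a positive difference, with a median of 0.45, and 0 passed. At an unadjusted p under 0.05, 11 lay higher and 1 lower, where 7.61% of all genes lay higher and 5.91% lower. Without KPC mouse 1 the list had 7 and 1 at a median of 0.33. Sgk1, a kinase gene induced by glucocorticoids and growth factors, averaged 28.5 ± 4.28 TPM in sham mice, and its KPC mean was 62.0 ± 27.6 TPM (SD, n = 5; limma adjusted p 0.102), without overlap. Csrnp1, an early nuclear protein, stood at 3.58 ± 0.50 against 9.28 ± 4.16 TPM, also without overlap (limma adjusted p 0.111). No overlap in this direction held for 2.75% of all genes tested. Gadd45g, a stress sensor that acts on MAP kinase cascades, stood at 35.7 ± 14.1 against 84.9 ± 28.6 TPM and Ier3 at 9.56 ± 1.91 against 25.5 ± 14.0 TPM, or 19.7 TPM without KPC mouse 1. Nr4a2, an orphan nuclear receptor, pointed the other way, at 2.70 ± 0.96 against 1.57 ± 0.30 TPM (limma adjusted p 0.286).

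Kinases and factors upstream of the early genes had a median log2 difference of -0.06 over 29 tested genes, and 0 passed. At an unadjusted p under 0.05, 2 lay higher and 2 lower, where 7.61% of all genes lay higher and 5.91% lower. Srf stood at 18.8 ± 1.73 against 23.4 ± 5.95 TPM and Elk1, its partner at serum response elements, at 9.46 ± 0.52 against 7.56 ± 0.94 TPM (SD, n = 5). Of the ribosomal S6 kinase genes, Rps6ka1 had 7.69 ± 0.97 TPM in sham mice and 10.4 ± 2.40 in KPC mice, and Rps6ka3 had 63.6 ± 10.6 and 46.5 ± 12.6 TPM. Levels of mRNA do not show whether these kinases were active.

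Feedback regulators of MAP kinases and EGR factors gave 0 calls among 19, with a median difference of 0.15. At an unadjusted p under 0.05, 2 lay higher and 1 lower, against 7.61% and 5.91% of all genes. Zfp36, whose product tristetraprolin destabilises AU-rich mRNAs of early genes, averaged 17.5 ± 2.85 TPM in sham mice, and its KPC mean was 27.2 ± 6.46 TPM (SD, n = 5; limma adjusted p 0.195). Dusp1, a phosphatase of MAP kinases, stood at 74.8 ± 10.1 against 106.9 ± 34.4 TPM, and Spred1, a RAS pathway inhibitor, at 9.89 ± 1.16 against 11.9 ± 1.86 TPM. Dusp4, a further MAP kinase phosphatase, stood at 31.3 ± 6.11 against 17.3 ± 9.16 TPM (limma adjusted p 0.308).

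Known AP-1 target genes had a median difference of 0.68 over 18 tested of 20, with 8 higher and 0 lower at an unadjusted p under 0.05. At that threshold 7.61% of all genes lay higher and 5.91% lower. Without KPC mouse 1 the median was 0.29, with 5 higher and 1 lower. The metallothionein gene Mt2 rose, at 111, 98.7, 58.1, 84.4 and 112 TPM in sham mice 1 to 5 and 1712, 349, 375, 765 and 561 TPM in KPC mice 1 to 5. Its limma adjusted p was 0.0299, and the call was lost in 10 of 23 alternatives, among them leaving out KPC mouse 4, KPC mouse 5 or any 1 sham mouse. Over all alternatives the adjusted p ran from 0.00260 to 0.123. Mt1, a near copy whose reads can be confused with those of Mt2, stood at 180 ± 25.5 against 658 ± 332 TPM (SD, n = 5; limma adjusted p 0.0605). Both also respond to metals and glucocorticoids, so their place in the list does not make them markers of AP-1. Mmp3, a matrix protease, stood at 10.2 ± 4.15 against 29.4 ± 18.1 TPM (22.2 TPM without KPC mouse 1), and Timp1, a protease inhibitor, at 7.54 ± 2.78 against 51.9 ± 77.9 TPM, or 17.2 TPM without KPC mouse 1. Vim, the vimentin gene, stood at 757 ± 137 against 608 ± 123 TPM.

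Genes that work with or under MYC were spread around 0. In the MYC, MAX and MXD network 5 of 11 tested genes had a positive difference, the median was -0.06 and 0 passed. At an unadjusted p under 0.05, where 7.61% of all genes lay higher, 1 gene of the network did. That gene was Mycl, a MYC family member of dendritic cells, at 1.58 ± 0.95 against 3.24 ± 1.06 TPM (SD, n = 5), and Max, the obligate partner of MYC, stood at 31.8 ± 1.49 against 35.4 ± 6.72 TPM. Of 20 known MYC target genes, 10 had a positive and 10 a negative difference, the median was 0.00 and 0 passed. Odc1, the first enzyme of polyamine synthesis, stood at 44.5 ± 3.46 against 50.9 ± 11.7 TPM. Nolc1, a nucleolar protein gene with the smallest p of that list, was listed at 0 in 2 KPC libraries and reached at most 1.75 TPM, so no fold is given. Of the others named by the same rule, Mxd1 and Mlxip, which share MAX or a related partner, stood at 4.21 ± 0.49 against 3.47 ± 0.69 TPM and 7.29 ± 0.69 against 8.63 ± 2.46 TPM. The targets Cad and Ccnd2, of nucleotide synthesis and the cell cycle, stood at 5.02 ± 0.98 against 4.13 ± 0.78 TPM, and 64.1 ± 9.79 against 52.7 ± 12.8 TPM.

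Heat shock genes, which respond to heat and handling of tissue, gave 0 calls among 13, with a median of 0.10. At an unadjusted p under 0.05, 1 lay higher and 0 lower, where 7.61% of all genes lay higher and 5.91% lower. Hspb1 stood at 171 ± 52.0 against 222 ± 37.9 TPM (SD, n = 5; limma adjusted p 0.300) and Hspa8 at 597 ± 96.6 against 710.4 ± 101.0 TPM. Dnajb1, a heat shock co-chaperone gene, stood at 15.7 ± 1.44 against 17.4 ± 2.41 TPM. Hspd1, a mitochondrial chaperonin gene, was the 1 gene with a negative difference, at 186 ± 21.0 against 157 ± 35.8 TPM.

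**Figure D5:**
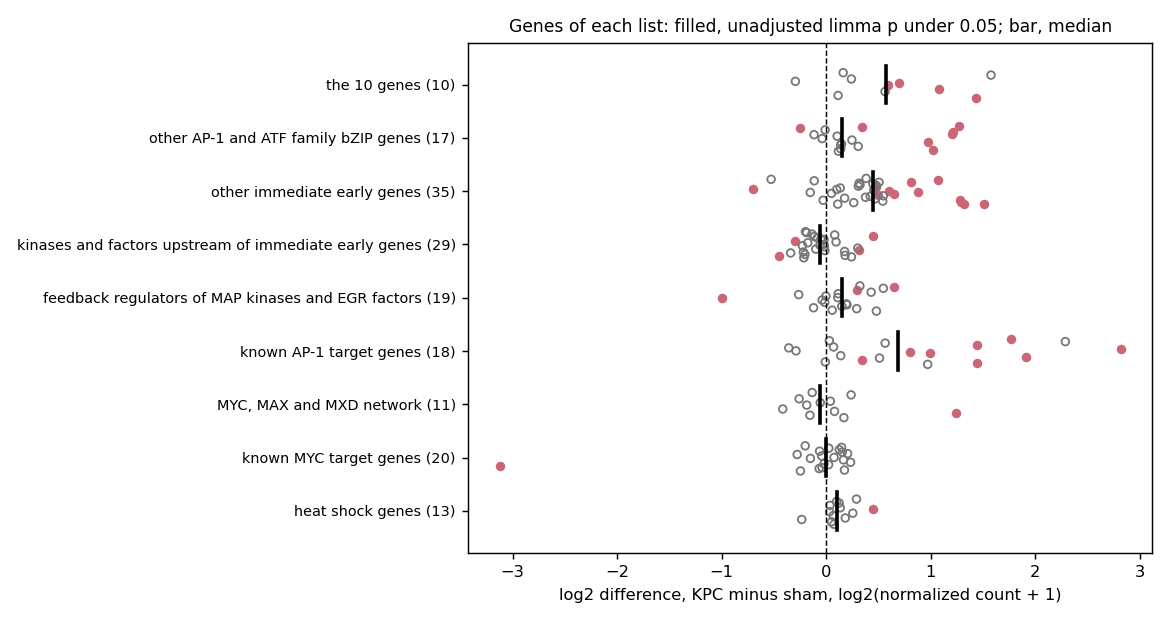
Log2 difference of KPC minus sham (horizontal axis) of each tested gene in the 10 genes and 8 related lists, with the number tested in brackets. Filled points have an unadjusted limma p under 0.05 and black bars are medians, which run from -0.06 for upstream kinases to 0.68 for known AP-1 targets.

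Markers of several blood-derived cell types had their highest sums in KPC mouse 1, where Atf3, Fosl2, Myc and Junb were highest too, but the order of the other KPC mice differed between lists and genes. All 10 macrophage markers had a positive difference, 9 of them at an unadjusted p under 0.05. Over all genes tested, 46.9% had a positive one and 7.61% lay higher at that threshold. The summed level of the macrophage markers was 538 to 866 TPM in sham mice, whereas KPC mice ran from 942 to 2849 TPM. It was highest in KPC mouse 1, and the other KPC mice had at most 1334 TPM. Monocyte markers (8 of 8 positive) summed to 122 to 191 TPM in sham mice, whereas KPC mice had 181 to 893 TPM, and at most 277 TPM without KPC mouse 1. Neutrophil markers (7 of 7 tested positive) summed to 17.1 to 61.7 and 20.2 to 255 TPM, and red cell markers (7 of 7 positive) to 4748 to 12870 and 8550 to 40718 TPM. Both maxima are KPC mouse 1, without which the highest KPC sums were 75.5 and 20280 TPM. T cell markers (7 of 7 tested positive) summed to 6.04 to 8.30 TPM in sham mice and reached 8.01 to 12.3 TPM with the tumour. At an unadjusted p under 0.05, 5 monocyte, 1 neutrophil, 1 red cell and 3 T cell markers lay higher, where 7.61% of all genes did. B cell markers did not share this direction, with 2 positive and 3 negative and a median of -0.33. Ms4a1, chosen after its values were seen, lay lower in every KPC mouse than in any sham mouse (limma adjusted p 0.534). That held for 1.28% of all genes tested, and Ms4a1 reached at most 0.82 TPM. No marker of these 6 lists was at 0 in all libraries. Relative to the sham mean in log2, macrophage markers lay at 1.76, 0.69, 0.56, 0.90 and 0.42 in KPC mice 1 to 5, so KPC mice 1 and 5 were highest and lowest as for Atf3 and Fosl2. Myc was lowest in KPC mouse 2, and neutrophil markers were lowest in KPC mouse 4 at -0.11. Skeletal muscle markers went the other way, with 0 of 10 positive and sums of 49.8 to 4429 TPM in sham. Smooth muscle and pericyte markers had 0 of 8 positive and a median of -0.79. Of 10 adipocyte markers 7 had a negative difference (median -0.29, or -0.12 without KPC mouse 1). At an unadjusted p under 0.05, where 5.91% of all genes lay lower, 3 of them did. They were Plin1, Pparg and Lpl, chosen after their values were seen. The 10 adipocyte markers summed to 31967 to 43205 TPM in sham and 27285 to 34865 TPM with the tumour, lowest in KPC mouse 1. The part of any of these cell types in the levels of the 10 genes was not tested. In bulk tissue a change in the number of cells of a type and a change in RNA per cell cannot be told apart.

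By a fixed rule, genes were ranked by likeness to the mean standardized log2 profile of Fos, Egr1, Jun and Ier2 across the 10 mice. Ranked genes had a mean of at least 50 normalized counts. The 10 genes themselves and genes whose symbol is only a model name were left out. Between the genes of the profile, Pearson's r ran from 0.127 (Jun and Egr1) to 0.867 (Egr1 and Ier2), so the profile is a mean of genes that did not all move together. Of 11761 genes, the 8 that followed it most closely were Vstm4, Sctr, Ube2o, Ccdc126, Dvl2, Meis3, Rsad2 and Plod1, with Pearson's r from 0.923 (Vstm4) down to 0.855 (Plod1) and Spearman's rho from 0.867 to 0.915. These are the tops of a ranking over many genes and carry no test. Vstm4 stood at 4.36 to 7.03 TPM and Plod1, a collagen-modifying enzyme gene, at 37.5 to 53.5 TPM over the 10 mice.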

How the data were processed

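Visceral adipose RNA of 10 mice was sequenced after RNeasy Plus extraction and Illumina library preparation, per the labels' protocols. The authors deposited a table of normalized counts (a signal on a linear scale) and a table of TPM. Salmon, DESeq, DESeq2 and build mm10 are named in the submitters' processing notes, with no versions; annotation and strand setting are not given. At best 31.1% to 47.3% of low values per library fell within 0.05 of a whole multiple of 1 step, so reads could not be recovered for a count model. Both tables carry 1 quantification: the median SD of their log2 ratio within a gene was 0.00041 over 10131 genes, after 1 factor per sample. True read depth is unknown, and the median SE of a log2 difference was 0.17.

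Columns were matched to samples by title, and groups and mouse numbers came from the labels. Limma p-values set each group difference against the spread between these mice, moderated over all genes. Permutation p-values come from reassigning or reordering the mice. Genes with a mean of at least 10 normalized counts entered a fit without covariates on log2(normalized count + 1), by limma 3.58.1 (R 4.3.3, variance modelled as a trend), with Benjamini-Hochberg adjustment over 14203 genes. The script was tested on simulated data. Exact permutation tests, 100000 permutations per correlation and summaries used Python 3.11.15 and scipy 1.17.1. Alternatives were other pseudocounts, TPM, scalings, filters, variance models, array weights, blocks and leaving out each mouse. Named list genes are the 4 with the smallest p per list, those that passed and the first in the other direction. The 10 genes and the lists were chosen with earlier results of these data known, and motifs with the promoters in view. Promoters are from RefSeq, gene positions from GENCODE vM21. In GENCODE an Atf3 exon starts a few bases before the RefSeq start, so the CRE core lies inside that exon. The GENCODE gene itself begins at 191218039 on the minus strand, so the whole Atf3 window lies inside the gene. The result of 1 gene that the rule for list genes picked is not reported here.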

Additional observations from a re-analysis of the deposited data

Results flagged for a closer look

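In groups of 5 mice, the distance of the highest or lowest mouse to its nearest neighbour was compared with the range of the group by Dixon's criterion on log2(normalized count + 1), which chance alone exceeds in about 1 in 20 groups. Of 20 groups (10 genes in sham and in KPC mice), 2 exceeded it. Fosb was listed at 0 normalized counts in sham mouse 3, while the other sham mice had 125 to 272. Myc stood at 1293 normalized counts in KPC mouse 1, while the other KPC mice had 610.1 to 713.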

How the results depend on the processing

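Of 230 values of the 10 genes under 23 alternatives, 226 kept their direction and their side of the threshold. Atf3 passed with array weights, where 172 genes were called higher, 28 lower and 1 of the 10 genes higher, in place of 7, 1 and 0. In the other alternatives 0 of the 10 passed. Ier2 turned to -0.0482 with the first title number as a replicate block. Leaving out 1 mouse at a time it ran from -0.10 to 0.33, below 0 without KPC mouse 1 or sham mouse 4, and calls over all genes ran from 1 to 66 higher and 1 to 4 lower, with 66 and 4 without KPC mouse 1. On TPM, 4 genes were called higher with a pseudocount of 0.1 and 2 higher and 0 lower with 1; without a variance trend 2 were called higher. The cause was not tested. The labels do not say whether mouse numbers pair the samples. Over all genes, same-numbered mice deviated together with correlations of 0.0051 to 0.191, and 2 of 5 KPC mice correlated best with their own number. With the mouse number as a replicate block the SE of Egr1 was 0.19 in place of 0.45. That of Atf3 was 0.17 in place of 0.29 (limma adjusted p 0.0598), while that of Fosb stayed at 1.30. An effect shared by same-numbered mice was not tested. With the mouse number or the first title number as a replicate block 3 genes were called higher. Of the named list genes, 782 of 803 values kept their side of the threshold and 0 reversed. Scalings moved the median of all genes by at most 0.03 in log2. Differences of the size seen for Fos, Egr1 and Ier2 lie within the spread of 5 mice, so these tests do not show equal levels.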

Other observations

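Integrated stress response genes, through which ATF4 can induce Atf3, were also measured. Of 13 genes, 12 were tested and 0 passed limma's adjusted threshold. At an unadjusted p under 0.05, 1 lay higher and 2 lower in KPC mice, against 7.61% and 5.91% of all genes tested. A positive difference was seen for 3 and a negative one for 9, with a median log2 difference of -0.12.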
